A study of Mus musculus with 4 samples.

Results

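The genes described here belong to families whose proteins add, remove and bind acetyl groups on histones. Not all of them act mainly on histones. Sirt3, Sirt4 and Sirt5 encode mitochondrial enzymes, and Hdac6 and Sirt2 encode deacetylases of tubulin. The 36 genes were matched by symbol and all were listed in every library, out of 24411 genes in all. They comprise 8 writers (histone acetyltransferases), 7 readers (proteins with a bromodomain), 18 erasers (the histone deacetylase and sirtuin families) and 3 scaffolds that hold deacetylases in corepressor complexes. ICR mouse embryos made by in vitro fertilization were collected late in the two-cell stage, at 36 hpi (hours post-insemination). RNA-seq was compared between 2 libraries of control embryos and 2 libraries of inhibitor-treated (MYC-inhibited) embryos, each made from 10 pooled embryos. Control embryos were cultured with DMSO, and treated embryos with 6 µM of 10074-G5, a small molecule that binds MYC and prevents its pairing with MAX. The series description gives 6 hpi as the start of the culture with either agent, and the sample labels give 3 hpi. No gene was deleted or knocked down in either group, so no targeted transcript checks the labels.

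Acetylation of lysines in histone tails loosens chromatin and marks active genes. Writers place the mark on newly made histones or at promoters and enhancers, erasers take it off, and proteins with a bromodomain dock on it and bring in transcription or remodelling complexes. The mouse oocyte stores transcripts of many of these enzymes, and in the two-cell embryo the stored transcripts decay while the embryonic genome is switched on, so that one library measures both pools together. Because polyadenylated RNA of whole embryos was sequenced, fewer transcripts per embryo and a different mix of embryos cannot be told apart.

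MYC-MAX dimers bind the E-box, CACGTG. It was searched in the RefSeq promoter windows of GRCm38.p6, from 250 bases before to 50 bases after a transcription start. A palindrome reads the same on both strands, so each match counts once, and no other motif was searched. Of the 36 genes, 31 had a window, and 4 of these (12.9%) held the letters, against 8.09% of 27025 gene symbols with a window and 11.5% of the 10307 tested genes with one. The genes without a window were Brd8, Hdac1, Hdac3, Hdac10 and Kat6a. In Hdac5 the match began 3 bases after the start. The other 3 genes, Hat1, Brdt and Sirt1, were also the writer, the reader and the eraser with the highest mean level, and the 250 bases before their starts are shown with the E-box in capitals, for chr2:71389010-71389259 on the plus strand, chr5:107330944-107331193 on the plus strand and chr10:63339036-63339285 on the minus strand.
Hat1: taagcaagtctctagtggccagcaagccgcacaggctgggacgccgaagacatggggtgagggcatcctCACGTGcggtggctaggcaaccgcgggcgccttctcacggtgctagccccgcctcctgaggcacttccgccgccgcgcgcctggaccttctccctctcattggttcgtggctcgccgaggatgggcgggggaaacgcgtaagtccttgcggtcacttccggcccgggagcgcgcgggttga
Brdt: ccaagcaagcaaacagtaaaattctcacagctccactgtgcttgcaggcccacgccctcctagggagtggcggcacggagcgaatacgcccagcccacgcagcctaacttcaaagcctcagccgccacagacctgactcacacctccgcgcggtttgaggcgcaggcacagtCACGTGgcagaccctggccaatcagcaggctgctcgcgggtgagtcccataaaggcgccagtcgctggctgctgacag
Sirt1: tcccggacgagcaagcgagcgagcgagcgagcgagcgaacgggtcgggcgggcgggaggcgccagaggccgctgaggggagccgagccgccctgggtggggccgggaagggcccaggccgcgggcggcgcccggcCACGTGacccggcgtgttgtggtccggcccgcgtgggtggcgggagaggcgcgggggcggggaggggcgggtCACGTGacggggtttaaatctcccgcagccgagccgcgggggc
The match began 181 bases before the start in Hat1, 78 bases in Brdt, and 115 and 43 bases in Sirt1. The window of Brdt counts from a start 78 bases inside the gene as RefSeq bounds it, so its match begins at the first base of the gene. A match describes the letters and does not show that MYC bound there.

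The expected counts summed to between 18206584 and 20718690 in a library. Of 13549 genes tested with edgeR, 43.4% differed by over 2-fold between the control replicates in CPM (counts scaled to library size with TMM factors) and 21.9% between the treated replicates. For the 33 acetylation genes that passed edgeR's filter on low counts, these numbers were 10 and 2. Control replicate 1 lay farther from the treated mean than control replicate 2 did for 27 of the 33 genes and for 77.2% of all tested genes. With 2 controls, this distance does not show which control is the more typical. Values without control replicate 1 are given beside the differences, and for several genes also values without control replicate 2. The summed CPM of 21 maternal oocyte markers was 2127 and 5900 in control replicates 1 and 2 and 10999 and 8176 in treated replicates 1 and 2, and that of 18 two-cell markers, among them the Zscan4 genes, was 1717, 4909, 6341 and 6355. A few abundant genes weigh most in these sums. Btg4 alone had 652 and 2721 CPM in control and 5717 and 3491 CPM in treated embryos. Not every maternal marker was low in control replicate 1. Zp3 had 244 CPM there, against 75.1 in control replicate 2 and 59.1 and 63.9 in treated embryos. Khdc3 had 19.6 and 11.4 CPM in control and 11.9 and 16.3 CPM in treated embryos. All genes of these 2 lists were above 3 counts in some library. Of 13 cumulus and granulosa cell markers 5 stayed at or under 3 counts in every library, among them Ptx3 and Lum. The summed CPM of the 13 lay between 12.8 and 45.0. It was highest in control replicate 1, where Amhr2 alone had 41.1 CPM, against 13.8 in control replicate 2 and 8.95 and 7.01 in treated embryos. Other markers did not share this order. Tnfaip6 had 0 CPM in control replicate 1 and 5.03 in control replicate 2, and Cyp19a1 was highest in treated replicate 1, at 5.94 CPM. Of 8 sperm markers 4 stayed at or under 3 counts in every library, among them Prm1, and their summed CPM lay between 1.43 and 5.43. The lower summed level of maternal and two-cell markers in control replicate 1 moved with many of the differences below, and its part in them was not tested.

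A gene was called where |log2FC| exceeded 1 with a Benjamini-Hochberg adjusted p under 0.05. In edgeR 0 of the 33 tested genes were called, and 0.0% of all genes in either direction. DESeq2 with transcript lengths also called 0 of them, against 0.456% of all genes higher and 2.36% lower. At an unadjusted edgeR p under 0.05, 5 genes were lower in treated embryos (15.2%, against 10.1% of all genes) and 0 were higher (against 4.72%). The 5 genes were the deacetylases Sirt1, Hdac1, Sirt7 and Hdac5 and the reader Brd8. Hdac5, with 0 counts in both treated libraries, passed the filter on low counts through the control libraries alone, so its difference had to appear. Without Hdac5 the count was 4. Hdac5 is also among the lower genes without overlap that are counted below. The count of 5 was 0 with limma on FPKM at either pseudocount and with the replicate block, and it also moved with a library left out. No share of all genes is given for these settings, so they only describe how the count moved. Without control replicate 1, where control replicate 2 alone stands for the controls and is assumed to vary like the treated libraries, Sirt1, Hdac1 and Brd8 still had an unadjusted p under 0.05, 3 of 32 tested genes, against 7.36% of all genes lower, and 0 were higher, against 6.44%. The CPM of the groups did not overlap for 15 lower genes (45.5%, against 28.3% of all genes) and 9 higher genes (27.3%, against 28.9%). Control replicate 1 was above control replicate 2 for 14 of the 15 lower genes, against 84.5% of all genes that were lower without overlap, and below it for 7 of the 9 higher genes, against 81.2%, so that the members were near the background in this order. With 2 libraries against 2, an exact two-sided permutation test of a single gene cannot give a p under 0.333.

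By role, the median log2FC was -0.57 for the 8 writers, -0.27 for the 7 readers, 0.30 for the 15 tested erasers and 0.35 for the 3 scaffolds, against 0.043 for all tested genes. Without control replicate 1 these medians were -0.25, -0.080, 0.16 and 0.017, against 0.029 for 13509 genes of the same set. Without control replicate 2 they were -0.74, -0.43, 0.035 and 0.60, against 0.16 for all tested genes. The eraser median was not stable in direction, at -0.087 without treated replicate 1 and 0.035 without control replicate 2. With all libraries it is the value of Hdac6, and it mixes unlike genes. The 3 nuclear sirtuins had a median of -1.13 and Hdac1 a log2FC of -0.99. Hdac2 was at 0.64 and the 3 mitochondrial sirtuins had a median of 0.10. Genes with few counts lay on both sides, Hdac3 and Hdac4 above 0 and Hdac5 and Sirt5 below. Of the writers, 6 lay below 0 and 6 were lower without overlap of the groups, against 28.3% of all genes, whereas all 3 scaffolds lay above 0 and the groups of 1 did not overlap. Of the 15 tested erasers 9 lay above and 6 below 0, and 5 were without overlap in each direction (33.3%), near the 28.9% and 28.3% of all genes. Summed FPKM, which the most abundant genes dominate, was lower in treated embryos for writers and erasers alike. For writers it was 243 and 183 in control and 159 and 152 in treated embryos. For erasers it was 512 and 413 in control and 358 and 340 in treated embryos. Sirt1 made up 43.9% and 35.6% of the eraser sum in control replicates 1 and 2, and Hdac1 36.2% and 31.8%. Library totals in place of TMM factors moved the median of all genes to 0.17 and the 4 role medians to -0.43, -0.12, 0.43 and 0.45. No test was run on these medians, and the difference between roles is a description.

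**Figure D1:**
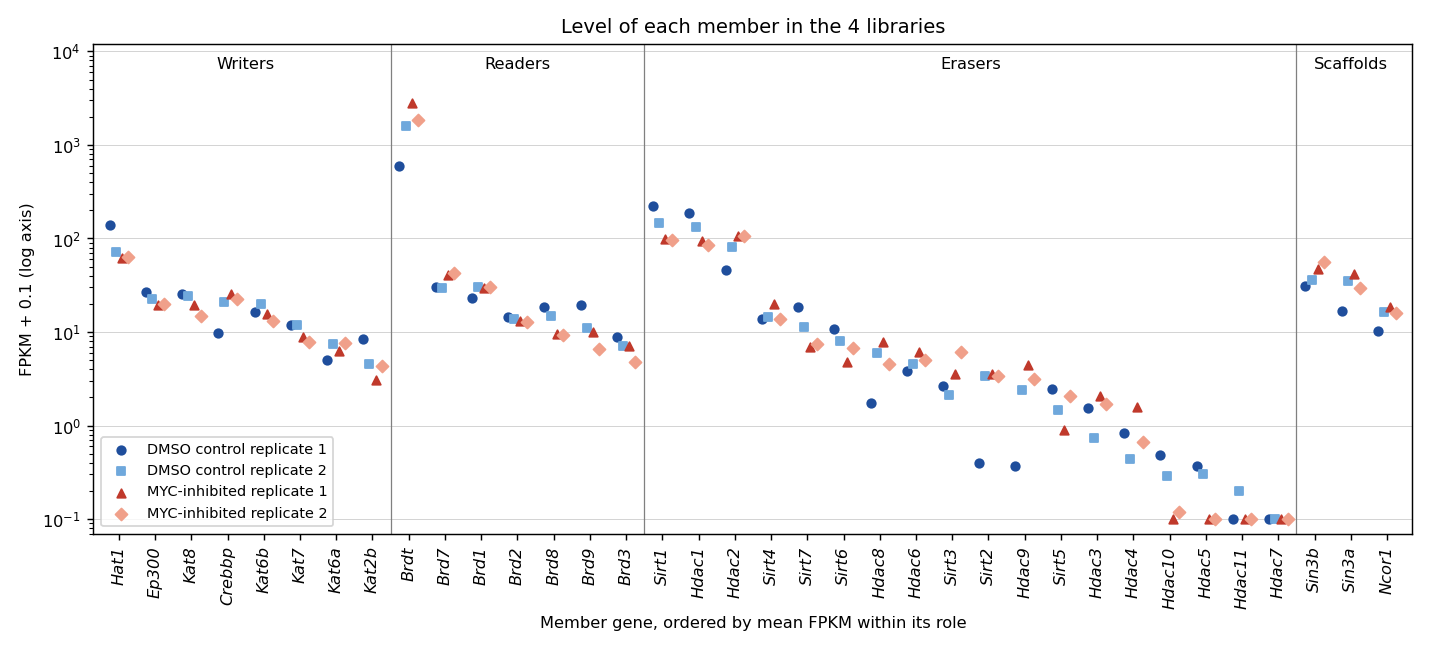
FPKM + 0.1 (log axis) of the 36 genes, grouped by role and ordered by mean FPKM, with 1 point for each of the 4 libraries. Brdt lies above every other member, Hat1, Sirt1, Hdac1 and Hdac2 follow, and Hdac7 sits at the bottom with 0 FPKM in all libraries.

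Among the writers, Hat1, the enzyme that acetylates newly made histone H4 before it enters chromatin, was the highest. Its FPKM (fragments scaled to transcript length and library size, without the TMM factors) was 139 and 71.4 in control replicates 1 and 2 and 62.1 and 63.0 in treated replicates 1 and 2. Control replicate 2 was much nearer to the treated libraries than to control replicate 1, although the groups did not overlap. The log2FC of Hat1, on chromosome 2 from 71389260 to 71441622, was -0.94 (standard error 0.46, adjusted p = 0.368 by edgeR). It was -0.19 without control replicate 1 and -1.42 without control replicate 2. Hat1 made up 57.4% of the summed FPKM of the writers in control replicate 1 and between 39.0% and 41.4% in the other 3 libraries.

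Ep300 and Crebbp encode p300 and CBP, closely related coactivators that acetylate histones at enhancers and promoters. Ep300 had 27.0 and 22.5 FPKM in control and 19.5 and 19.9 FPKM in treated embryos, so that both treated libraries were below both controls. Crebbp had 9.77 and 21.03 FPKM in control and 25.1 and 22.2 FPKM in treated embryos, the opposite order, with control replicate 1 far below the rest. Within a library, where scaling between libraries cancels out, the ratio of Ep300 to Crebbp was 2.76 and 1.07 in control and 0.775 and 0.894 in treated embryos, and the treated mean lay 1.05 below the control mean on the log2 scale and 0.36 below control replicate 2 alone. The log2FC was -0.49 (standard error 0.36, adjusted p = 0.512 by edgeR) for Ep300 and 0.52 (standard error 0.41, adjusted p = 0.533) for Crebbp. Without control replicate 1 these values were -0.20 and 0.17, and without control replicate 2 they were -0.73 and 1.01.

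Kat8, Kat7, Kat6b and Kat6a encode acetyltransferases of the MYST family. Kat8, the catalytic subunit of the MSL and NSL complexes that acetylate histone H4, had 25.5 and 24.4 FPKM in control and 19.4 and 14.7 FPKM in treated embryos. Kat7, which works with BRPF and JADE scaffold proteins, had 11.7 and 11.7 FPKM in control and 8.80 and 7.72 FPKM in treated embryos. Kat6b, a MYST enzyme that acetylates histone H3, had 16.4 and 19.8 FPKM in control and 15.4 and 12.9 FPKM in treated embryos. For these 3 genes both treated libraries were below both controls and the control replicates were close to each other. Their log2FC was -0.69 for Kat8, -0.64 for Kat7 and -0.49 for Kat6b, with adjusted p from 0.419 to 0.497 by edgeR, and it was -0.52, -0.50 and -0.49 without control replicate 1 and -0.84, -0.76 and -0.48 without control replicate 2. The paralog Kat6a had between 4.92 and 7.52 FPKM, with overlapping groups and a log2FC of 0.038. Kat2b, a GNAT family enzyme also named PCAF, had 8.23 and 4.43 FPKM in control and 2.96 and 4.26 FPKM in treated embryos, and its log2FC was -0.99 with all libraries and -0.30 without control replicate 1. A Kat2b pseudogene matches its transcript with 95.1% identity over 2479 bases, which makes its counts uncertain.

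**Figure D2:**
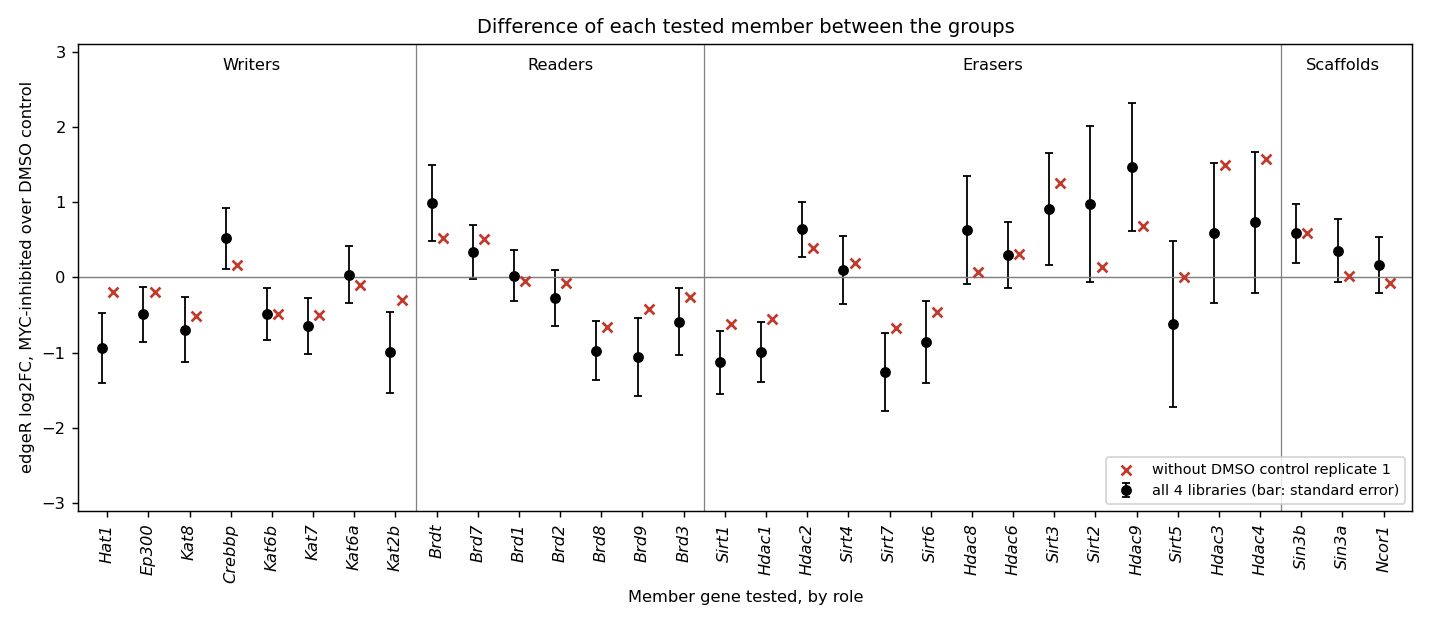
edgeR log2FC of 32 tested genes by role, treated over control, with standard errors (black) and the value without control replicate 1 (red crosses). The crosses of Kat6b, Kat7 and Sin3b lie on or near the black points, while that of Hat1 moves from -0.94 to -0.19. Hdac5, with no count in treated libraries, is left out.

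Among the readers, Brdt stood far above the rest. BRDT is the BET protein known from the testis, where it binds acetylated histones in maturing sperm cells. Its FPKM was 600 and 1609 in control and 2790 and 1849 in treated embryos, which placed it at rank 252 and 59 of 24411 genes in the control libraries and at rank 21 and 43 in the treated libraries. The control replicates differed more from each other than control replicate 2 did from the lower treated library. The log2FC of Brdt, on chromosome 5 from 107331116 to 107387061, was 0.98 (standard error 0.51, unadjusted p = 0.0902, adjusted p = 0.381 by edgeR). It was 0.53 without control replicate 1 and 1.67 without control replicate 2. DESeq2 with transcript lengths gave Brdt an unadjusted p of 0.0378 and an adjusted p of 0.158. Brdt made up 84.1% of the summed FPKM of the readers in control replicate 1 and between 93.8% and 96.2% in the other libraries. The other 6 readers together summed to 114 and 106 FPKM in control and 110 and 105 FPKM in treated embryos.

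Of Brdt, 2 transcripts were quantified, and RSEM gave their length, averaged by abundance, as 1649 and 1637 bases in control and 1637 and 1635 bases in treated embryos. In the GENCODE annotation of the same genome these RefSeq transcripts are 1607 and 4745 bases long. In every library the average was therefore near the shorter transcript.

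The other BET genes, Brd2 and Brd3, encode readers that bind acetylated histones at active promoters. Brd2 had between 12.8 and 14.4 FPKM and a log2FC of -0.27, and Brd3 had between 4.65 and 8.70 FPKM and a log2FC of -0.59, and without control replicate 1 these values were -0.080 and -0.26. Brd1, a partner of Kat7, was nearly level between the groups, with between 22.9 and 30.5 FPKM and a log2FC of 0.024. Brd8, a subunit of the NuA4 acetyltransferase complex, had 18.4 and 14.8 FPKM in control and 9.44 and 9.27 FPKM in treated embryos. The treated replicates of Brd8 were nearly equal and below both controls. Its log2FC was -0.98 (standard error 0.39, unadjusted p = 0.0394, adjusted p = 0.333 by edgeR). It was -0.66 without control replicate 1 and -1.23 without control replicate 2. The adjusted p of Brd8 lay between 0.142 and 0.468 in the other settings that kept all 4 libraries. Brd8 overlaps Kif20a, and reads of the overlap could have been counted for either gene.

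Brd7 and Brd9 are related readers that sit in different SWI/SNF remodelling complexes, PBAF and the non-canonical BAF complex. Brd7 had 30.4 and 29.3 FPKM in control and 40.9 and 42.4 FPKM in treated embryos, with close replicates in both groups. Brd9 had 19.2 and 10.96 FPKM in control and 9.86 and 6.47 FPKM in treated embryos. The ratio of Brd7 to Brd9 within a library was 1.58 and 2.67 in control and 4.15 and 6.55 in treated embryos, a difference of 1.34 on the log2 scale, with an SD of 0.53 between control and 0.47 between treated replicates, and a difference of 0.96 from control replicate 2 alone. The log2FC was 0.33 (standard error 0.36, adjusted p = 0.657 by edgeR) for Brd7 and -1.06 (standard error 0.52, adjusted p = 0.367) for Brd9, and without control replicate 1 it was 0.51 and -0.42. Brd7 overlaps Adcy7 in the annotation.

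Among the erasers, Sirt1, an NAD-dependent deacetylase of histones and transcription factors, had the highest mean level. Its FPKM was 225 and 147 in control and 97.7 and 96.1 in treated embryos. The treated replicates were nearly equal, and both were below control replicate 2, the nearer of the controls. The log2FC of Sirt1, on chromosome 10 from 63319005 to 63339035, was -1.13 (standard error 0.42, unadjusted p = 0.0292, adjusted p = 0.333 by edgeR). It was -0.61 without control replicate 1. Among the other settings tried the adjusted p was lowest, at 0.000823, without control replicate 2, and highest at 0.992. The other nuclear sirtuins lay in the same direction. Sirt7, a nucleolar deacetylase, had 18.6 and 11.3 FPKM in control and 6.77 and 7.31 FPKM in treated embryos. The log2FC of Sirt7 was -1.26 (standard error 0.52, unadjusted p = 0.0435, adjusted p = 0.334 by edgeR). It was -0.68 without control replicate 1 and -1.66 without control replicate 2. The adjusted p took values from 0.145 to 0.436 in the other settings that kept all 4 libraries. Sirt6, a deacetylase of histone H3, had 10.6 and 7.87 FPKM in control and 4.68 and 6.73 FPKM in treated embryos, a log2FC of -0.86, and -0.46 without control replicate 1. For Sirt1, Sirt7 and Sirt6 the groups did not overlap.

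The sirtuins outside the nucleus varied in sign. Sirt3, Sirt4 and Sirt5 encode mitochondrial enzymes and had a log2FC of 0.91, 0.10 and -0.62 at means of 3.51, 15.5 and 1.62 FPKM over the 4 libraries, with adjusted p from 0.55 to 0.924 by edgeR. Without control replicate 1 these values were 1.25, 0.19 and 0.0080. Sirt2, a mainly cytoplasmic deacetylase of tubulin, had a count of 8 in control replicate 1 against 86, 110 and 101 in the other libraries, so that its log2FC of 0.97 was 0.14 without that library.

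Hdac1 and Hdac2 encode the paired class I deacetylases that form the catalytic core of the Sin3, NuRD and CoREST complexes. Hdac1 had 186 and 131 FPKM in control and 94.3 and 84.8 FPKM in treated embryos. Hdac2 had 45.4 and 80.3 FPKM in control and 105 and 106 FPKM in treated embryos. Both genes separated the groups, in opposite directions, with control replicate 2 between control replicate 1 and the treated libraries. The ratio of Hdac1 to Hdac2 within a library was 4.09 and 1.63 in control and 0.896 and 0.801 in treated embryos, so that Hdac1 was the higher of the pair in both control libraries and Hdac2 in both treated libraries. On the log2 scale the ratio averaged 1.37 ± 0.94 in control and -0.24 ± 0.11 in treated libraries (SD, n = 2 each), and the treated mean lay 0.95 below control replicate 2 alone. The log2FC of Hdac1, on chromosome 4 from 129516104 to 129542646, was -0.99 (standard error 0.40, unadjusted p = 0.0391, adjusted p = 0.333 by edgeR). It was -0.55 without control replicate 1 and -1.32 without control replicate 2. The adjusted p of Hdac1 lay between 0.120 and 0.469 in the other settings that kept all 4 libraries. The log2FC of Hdac2, on chromosome 10 from 36974297 to 37001889, was 0.64 (standard error 0.37, adjusted p = 0.419 by edgeR). It was 0.39 without control replicate 1 and 0.95 without control replicate 2. The GENCODE transcript of Gm10093 matches that of Hdac1 with 99.4% identity over 1444 bases, and reads that match both equally do not map uniquely and are lost, which makes the level of Hdac1 uncertain.

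**Figure D3:**
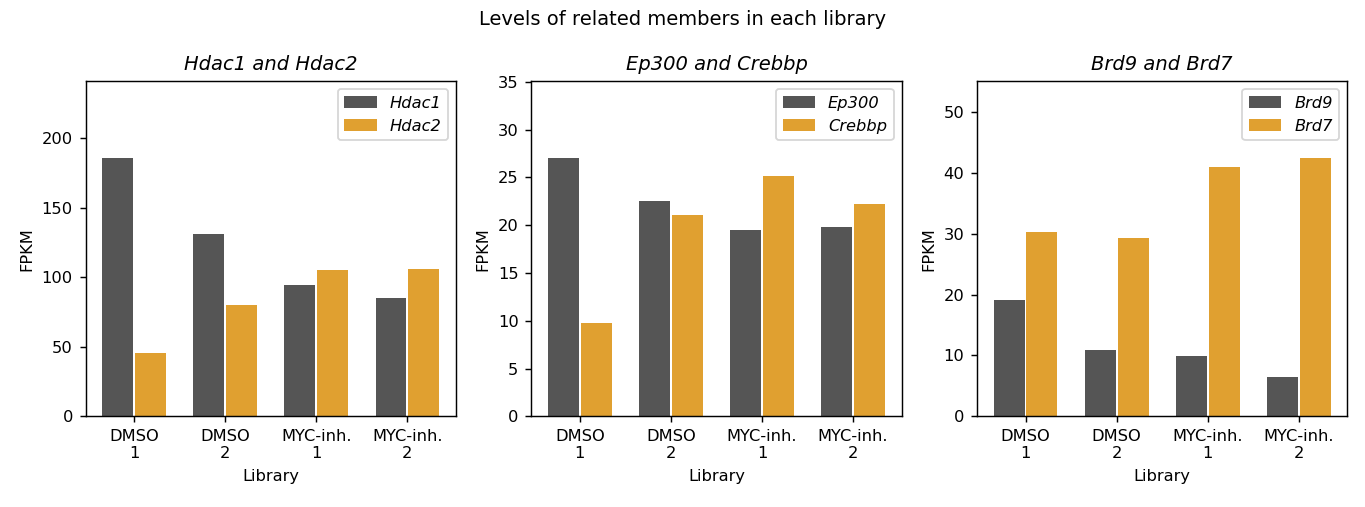
FPKM (bars from 0) of 3 pairs of related genes in each of the 4 libraries. Hdac1 was above Hdac2 in both control libraries and below it in both treated libraries, Ep300 and Crebbp crossed in the same way, and Brd7 lay between 40.9 and 42.4 FPKM in the treated libraries, where Brd9 had 9.86 and 6.47 FPKM.

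These pairs were among 7 compared, and the pairs were chosen after the values were seen. The groups did not overlap either for Kat6a to Kat6b, with a log2 difference of 0.54 (0.39 from control replicate 2 alone), nor for Sirt1 to Sirt7, where it was only 0.13 (0.078) because both genes lay in the same direction. They overlapped for Brd2 to Brd3 and for Sin3a to Sin3b.

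The remaining histone deacetylases were low. Hdac3, the enzyme of the NCoR complex, had between 20 and 71 counts in a library and Hdac8, a class I deacetylase, between 46 and 233. Of the class IIa genes, Hdac9 had 23 and 177 counts in control and 378 and 257 counts in treated embryos, and Hdac4 had between 23 and 113 counts with overlapping groups. The log2FC of Hdac9 was 1.47 (standard error 0.85, adjusted p = 0.419 by edgeR) and 0.68 without control replicate 1. Hdac5 had 18 and 13 counts in control and 0 in both treated libraries. With a floor of 3 counts in each treated library, which a count of 0 allows, the mean control CPM of Hdac5 (0.883) was 6.26-fold above the floor (0.141). Control replicate 2 alone had 0.688 CPM, and the counting error of the control libraries is left out. Hdac5 passed the filter on low counts through the control libraries alone, so a difference had to appear, and without it 4 genes had an unadjusted p under 0.05 by edgeR. Hdac6, a tubulin deacetylase of class IIb, had between 272 and 477 counts and a log2FC of 0.30, which was 0.31 without control replicate 1. Hdac7, Hdac10 and Hdac11 did not pass the filter. Hdac7 had a count of 0 in every library, Hdac11 had 4 counts in control replicate 2 and 0 elsewhere, and Hdac10 had 17 and 8 counts in control and 0 and 1 in treated embryos.

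Sin3a and Sin3b encode scaffolds that tether Hdac1 and Hdac2 to transcription factors, and Ncor1 encodes the corepressor that activates Hdac3. Sin3b had 31.0 and 35.7 FPKM in control and 46.9 and 56.5 FPKM in treated embryos, and its groups did not overlap. Its log2FC, on chromosome 8 from 72723270 to 72758203, was 0.59 (standard error 0.39, adjusted p = 0.469 by edgeR) and remained at 0.59 without control replicate 1. Sin3a had 16.8 and 34.9 FPKM in control and 41.4 and 29.2 FPKM in treated embryos, with control replicate 1 alone below the others, and its log2FC of 0.35 was 0.02 without that library. Ncor1 had 10.04 and 16.5 FPKM in control and 18.5 and 15.9 FPKM in treated embryos, and its log2FC of 0.16 was -0.072 without control replicate 1.

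RSEM also reports for each gene and library a transcript length averaged by the abundance of its transcripts, which was not used to choose the genes. Among 19 tested members with several transcripts, the length was longer in both treated libraries for 5 (against 12.8% of 3975 such genes) and shorter for 1 (against 9.69%). The 5 include Hdac5, whose treated lengths rest on 0 counts and measure nothing, and Sirt2, with 8 counts in control replicate 1. Among the 17 with at least 10 counts in every library these numbers were 3 and 1, against 13.9% and 10.2% of such genes. The shorter one was Sirt1, with 3872 and 3859 bases in control and 3827 and 3829 bases in treated embryos, where GENCODE gives its RefSeq transcripts 3905 and 3740 bases. Sin3b had 1071 and 1111 bases in control and 1166 and 1120 bases in treated embryos, against 1024 and 4115 bases for its transcripts, so that in all libraries most of its estimated abundance lay in the shorter one. Kat7 and Sirt6 were the other longer members, and their lengths ranged by 0.787% and 0.502% of their means. Ncor1 varied most among members with at least 10 counts in every library, between 5779 and 6544 bases, with overlapping groups. These lengths are estimates without errors and were given no test, and transcript lengths can differ between the annotation of the files and GENCODE.

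**Figure D4:**
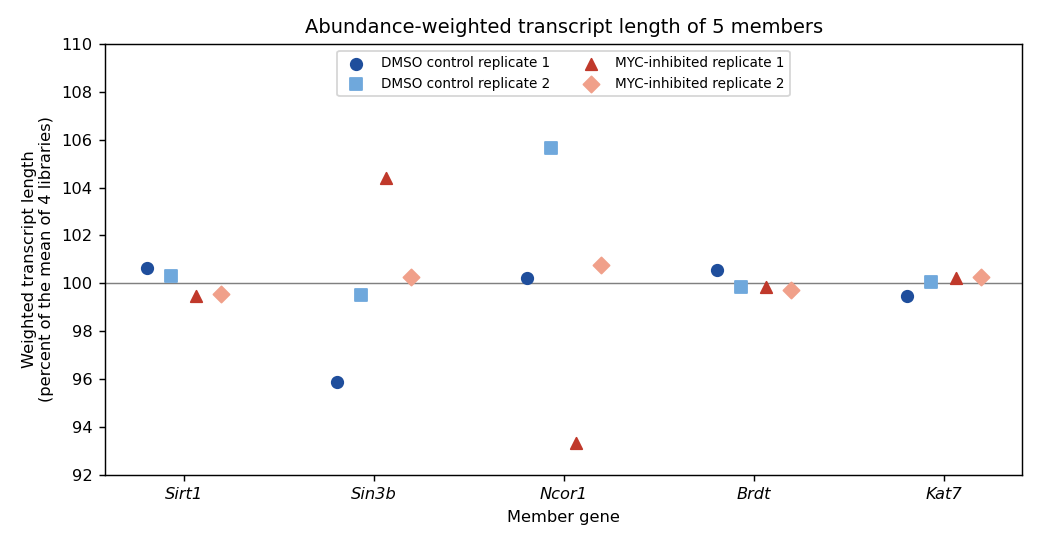
Abundance-weighted transcript length of 5 members in each library, as a percentage of the mean of the 4 libraries (the axis starts at 92). Both treated libraries lie below both controls for Sirt1 and above them for Sin3b and Kat7, while the groups overlap for Ncor1 and Brdt.

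Other genes of these complexes were taken from 3 lists. Of 47 further acetyltransferase genes, 4 were lower and 1 higher at an unadjusted edgeR p under 0.05, with a median log2FC of -0.25. The 3 smallest p-values were those of Ccdc101 (now Sgf29), a reader subunit of the SAGA complex, Kansl2, of the NSL complex with Kat8, and Jade2, a partner of Kat7, with a log2FC of -1.67, -1.17 and 1.14. Of 38 tested deacetylase complex genes, 6 were lower and 1 higher, with a median of -0.21. Mta2 of NuRD, Brms1l of the Sin3 complex and Kdm1a, the demethylase of CoREST, which all work with Hdac1 and Hdac2, had a log2FC of -1.53, -1.44 and -1.32. Mta2 had 78.6 and 39.0 CPM in control and 18.5 and 22.1 CPM in treated embryos. Of 30 tested further readers of acetylated lysine, 5 were lower and 0 higher, with a median of -0.28, and Trim33, Smarca4 and Taf1 had a log2FC of -1.34, -1.44 and -1.27. The share that was lower was 8.51%, 15.8% and 16.7% for the 3 lists, against 10.1% of all genes. Each of these 9 named genes had an edgeR adjusted p of 0.333, so that edgeR called none, and DESeq2 with transcript lengths called Ccdc101 (adjusted p = 0.0445), Mta2 (0.0482) and Trim33 (0.0472). These were the only DESeq2 calls in the 3 lists, 1 lower gene in each of the lists of 47, 38 and 30 tested genes. Of all genes, 2.36% were called lower by the same fit. Without control replicate 1 the log2FC was -0.95, -0.77 and 0.93 for Ccdc101, Kansl2 and Jade2, -0.93, -0.79 and -0.71 for Mta2, Brms1l and Kdm1a, and -0.91, -0.72 and -0.54 for Trim33, Smarca4 and Taf1, and the list medians were 0.035, -0.18 and -0.12.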

How the data were processed

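Polyadenylated RNA of 4 pools of 10 embryos was amplified with a SMART-Seq kit and sequenced. The authors aligned read pairs to mm10 with STAR (2.7.10 in the submitters' notes), discarded reads with several matches and used RSEM (1.3.3) for gene levels. The deposited expected count is RSEM's fragment estimate and is not normalized. The deposited FPKM and TPM were scaled by the authors to effective transcript length, and the TPM only served to check units. The length columns deposited by the authors are averages over transcripts weighted by abundance.

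Expected counts were rounded (3.97% to 4.49% were not whole), filtered with filterByExpr (minimum count 10, minimum total 15) and tested over 13549 genes with edgeR 4.0.16 in R 4.3.3, with TMM factors, robust quasi-likelihood and Benjamini-Hochberg adjustment. The standard error is the log2FC over the square root of the F statistic. Alternatives used DESeq2 1.42.0 and limma 3.58.1 (mean FPKM 1 or more, pseudocounts 1 and 0.1), other scaling and filters, a replicate block and each library left out. Copies were sought with blastn 2.17.0 among GENCODE transcripts (at least 95% identity over 1000 bases). Gene positions and promoters are those of RefSeq on GRCm38.p6, the assembly that mm10 names. The tests were run on simulated data, but the condition they had to pass used a smaller spread between replicates than these data have. It therefore does not show how they perform at the spread of these data. Members, lists and the rule for named genes (an unadjusted p under 0.05, a DESeq2 call, or the 3 highest FPKM of a role; for other lists, the 3 smallest p) were chosen with earlier results of these data known. Crebbp, Kat2b, Kat6b, Kat7, Brd9, Sirt2, Sirt6 and Hdac9 fall outside the rule and were picked after their values were seen. PCR copies were counted like molecules, so a floor of 3 counts covers counting error only. The study names the libraries biological replicates.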

Additional observations from a re-analysis of the deposited data

How the results depend on the processing

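With 14 alternatives run over all genes, 27 of the 33 tested members kept the sign of their log2FC wherever they had a value. Of the 33, Hdac5 had none in 4 alternatives, Hdac4 in 2 and Sirt2 in 1. With a library left out the log2FC ranged from -0.10 to 0.21 for Kat6a, -0.043 to 0.11 for Brd1, -1.38 to 0.0080 for Sirt5 and -0.072 to 0.45 for Ncor1, whose sign turned without control replicate 1, and from -0.098 to 1.57 for Hdac4 and -0.17 to 0.36 for Sirt4, whose sign turned without treated replicate 1. That of Kat6a also turned without treated replicate 2. edgeR called from 0 to 11 members with a library left out, all 11 without control replicate 2 (4 higher and 7 lower of 34 tested, against 14.6% and 14.1% of all genes), where the treated libraries are compared with control replicate 1 alone, assumed to vary like them. The number lower at an unadjusted p under 0.05 was 5, but 0 with limma at either pseudocount and 1 with library totals. The number higher was 0, but 1 in each of the 3 DESeq2 settings and 2 without the filter on low counts. With transcript lengths in DESeq2 the higher gene was Brdt. With the replicate block the numbers were 0 lower and 1 higher. Both numbers also moved with a library left out. The share of all genes at this threshold is not given for these settings, so the counts only describe how the numbers moved. Replicate numbers are not said to mark a shared batch, and the deviations of same-numbered libraries had a correlation of -0.03 across 13549 genes.

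With a library left out the median log2FC ranged from -0.74 to -0.25 for writers, -0.43 to -0.080 for readers, -0.087 to 0.40 for erasers and 0.017 to 0.60 for scaffolds, and from -0.32 to 0.035, -0.35 to -0.13 and -0.42 to -0.12 for the further acetyltransferase, deacetylase and reader genes. The eraser median was 0.095 and 0.11 with DESeq2 on all genes without and with transcript lengths and 0.10 without the filter, settings that bring in Hdac10 and Hdac11. The medians of the 3 further lists were -0.029, -0.046 and -0.086 with limma at a pseudocount of 1, -0.027, -0.046 and -0.089 at 0.1, and -0.071, -0.061 and -0.13 with library totals. Transcript lengths did not overlap for 6 members, and for 8 to 12 with a library left out, when fewer libraries have to separate. No share of all genes is given for transcript lengths with a library left out. The 8 to 12 therefore cannot be judged against a background and only describe how the count moved. For the other moved values the cause was not tested.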
